A study of Homo sapiens with 6 samples.

Results

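Interleukins, chemokines and their receptors were examined in WM164, an established human melanoma cell line. The members are the protein-coding genes of the deposited count table whose symbols begin with IL, CXCL, CXCR, CCL or CCR and a digit, or with CX3C, leaving out IL1RAPL1 and IL1RAPL2. These made up 144 of the 58870 entries in the table, and carried 142 different symbols because IL3RA and IL9R each have a second entry for their copy on the Y chromosome. The name rule also takes genes that are not cytokines or receptors, such as IL4I1, an amino acid oxidase. The rule uses symbols and gene types only.

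RNA was sequenced from cells overexpressing GFP (green fluorescent protein, the control) and from cells overexpressing T-MGM, a dimer of the transcription factors MITF and MAFG joined by a flexible linker, with 3 libraries in each group. Both inserts were delivered by lentivirus under the EF1alpha promoter with blasticidin selection, so all cells compared were transduced and selected, and all were grown in RPMI with fetal bovine serum. The dimer carries the melanocyte isoform of MITF. The labels do not say whether the libraries of a group came from separate cultures, and the general statements of the study on replication do not name these libraries, so the p-values measure the spread between these libraries, which may be technical.

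Interleukins and chemokines are small secreted or membrane-bound proteins through which cells signal to one another. Most interleukins bind receptors built from a ligand-specific chain and a chain shared by several cytokines, such as gp130 or the common gamma chain, and signal through JAK kinases and STAT factors, while the IL-1 and IL-17 families use adaptor proteins and reach NF-kB. Chemokines bind receptors coupled to inhibitory G proteins and direct cell migration. Melanoma cells are known to release some of these proteins, which attract leukocytes or act back on the tumour cells.

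The libraries held 35057239 to 38738065 counts in the GFP group and 44577774 to 59250663 in the group labelled T-MGM, which was therefore sequenced more deeply, and values below are counts divided by a size factor per library unless stated otherwise. A count of 10 stood for 0.258 to 0.285 CPM (counts scaled to the library total) with GFP and for 0.169 to 0.224 CPM in T-MGM-labelled libraries. MAFG had a log2 fold change of -0.06 (SE 0.04) and MITF of 0.08 (SE 0.02), although the construct carries both, and the reason was not tested. The counts of these genes thus give no check of the construct, and every direction below rests on the labels. All 6 melanocyte lineage markers listed (MITF, SOX10, PMEL, MLANA, TYR and DCT) were expressed, and their summed level was 2746 to 2768 CPM with GFP and 2477 to 2541 CPM in T-MGM-labelled libraries, where DCT, MLANA and TYR were lower and MITF, SOX10 and PMEL higher at the adjusted p threshold. Of 12 leukocyte markers, 8 had at most 3 counts in any library, among them PTPRC, and CD3D, FCGR3A, NKG7 and TYROBP were at 0 throughout; the summed level of 19.3 to 21.0 CPM with GFP and 22.5 to 27.3 CPM in T-MGM-labelled libraries came mostly from CD68, a lysosomal protein of many cell types, and LYZ, with log2 fold changes of 0.45 and -1.32. Fibroblast markers summed to 9.38 to 9.73 CPM with GFP and 16.96 to 18.7 CPM in T-MGM-labelled libraries, with 4 of 6 higher at the adjusted p threshold (COL1A1, LUM, PDGFRA and PDGFRB). Of 4 endothelial markers 2 were expressed, at a summed 0.542 to 0.981 CPM with GFP and 0.793 to 1.17 CPM in T-MGM-labelled libraries, and none of 4 epithelial markers was, at 0.0516 to 0.143 and 0.0506 to 0.105 CPM. The part of the fibroblast markers, of LYZ and of DCT in the results below was not tested. In bulk RNA, fewer cells that make a transcript and less of it per cell cannot be told apart.

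Promoters are shown for 5 members whose values carry the results below, the higher IL7R, IL11 and CXCL8 and the lower CCL20 and IL24, because the construct is made of DNA-binding proteins. Each run covers 250 bases before to 50 bases after the RefSeq transcription start (build GRCh38.p14), 5′ to 3′ on the strand of the gene. Capitals mark matches on either strand to any of 5 motifs: CACGTG and CATGTG, the E-boxes bound by MITF; TGANTCA, the core shared by AP-1 and MAF recognition elements; TGACNNNGC, the core of the antioxidant response element; and TGCTGA, the flanking part of the MAF recognition element.
IL7R: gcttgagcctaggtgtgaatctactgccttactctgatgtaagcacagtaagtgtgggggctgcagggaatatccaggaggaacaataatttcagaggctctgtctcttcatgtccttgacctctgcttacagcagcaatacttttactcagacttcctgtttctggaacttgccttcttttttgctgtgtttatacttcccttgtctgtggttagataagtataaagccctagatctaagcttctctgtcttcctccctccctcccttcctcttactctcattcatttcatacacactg
IL11: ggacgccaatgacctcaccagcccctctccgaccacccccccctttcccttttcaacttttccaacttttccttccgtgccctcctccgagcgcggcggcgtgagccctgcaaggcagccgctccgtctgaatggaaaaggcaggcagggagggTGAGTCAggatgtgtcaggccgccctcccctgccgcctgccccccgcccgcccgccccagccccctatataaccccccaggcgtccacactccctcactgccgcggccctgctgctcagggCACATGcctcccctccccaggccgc
CXCL8: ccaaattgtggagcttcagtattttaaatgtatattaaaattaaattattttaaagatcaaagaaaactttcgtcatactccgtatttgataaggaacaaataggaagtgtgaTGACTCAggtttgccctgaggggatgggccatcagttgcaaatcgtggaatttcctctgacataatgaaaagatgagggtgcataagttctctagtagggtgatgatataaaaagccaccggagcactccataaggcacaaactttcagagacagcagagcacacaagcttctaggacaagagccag
CCL20: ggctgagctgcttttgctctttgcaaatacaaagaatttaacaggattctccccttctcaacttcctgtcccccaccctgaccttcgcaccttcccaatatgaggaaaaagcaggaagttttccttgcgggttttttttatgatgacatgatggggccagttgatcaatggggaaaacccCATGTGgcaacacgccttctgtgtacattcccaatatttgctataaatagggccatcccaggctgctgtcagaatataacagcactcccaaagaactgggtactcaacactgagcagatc
IL24: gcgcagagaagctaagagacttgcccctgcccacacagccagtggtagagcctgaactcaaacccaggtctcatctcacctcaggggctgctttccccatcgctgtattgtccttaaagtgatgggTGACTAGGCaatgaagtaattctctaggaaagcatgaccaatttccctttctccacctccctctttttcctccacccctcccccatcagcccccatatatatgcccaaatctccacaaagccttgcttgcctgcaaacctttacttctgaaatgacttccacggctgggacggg
The starts used are those of RefSeq, which for IL7R, CXCL8 and CCL20 lie inside the bounds of the gene in GENCODE. These windows lie at chr5:35856641-35856940 (IL7R, plus strand), chr19:55370414-55370713 (IL11, minus strand), chr4:73740319-73740618 (CXCL8, plus strand), chr2:227813592-227813891 (CCL20, plus strand) and chr1:206897193-206897492 (IL24, plus strand). IL11 held TGANTCA starting at position -96 from the transcription start and CATGTG, read on the other strand, at position 26. CXCL8 held TGANTCA at position -137, CCL20 held CATGTG at position -70 and IL24 held TGACNNNGC at position -124. No motif lay within the IL7R window. The study reports more MAFG binding at IL7R by CUT&RUN, a chromatin binding assay, in WM164 cells overexpressing MAFG rather than the dimer. RefSeq promoters were matched for 109 of the 142 symbols, IL2RB not among them. TGANTCA lay in 20 of these 109 promoters (18.3%) and in 7.71% of all 35116 promoters of this length. CATGTG lay in 20 (18.3%, against 11.1% of all), TGCTGA in 22 (20.2%, against 17.3%), TGACNNNGC in 14 (12.8%, against 13.3%) and CACGTG in 1 (0.917%, against 7.26%). Member promoters were limited to a single promoter per symbol, whereas all promoters were counted without that limit, so the shares are not of like sets. These shares describe letters in a window and say nothing of binding.

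Most members were silent or nearly so in WM164. With expression taken as 10 or more counts in at least 3 of the 6 libraries, 34 of 144 entries were expressed, 33 had more than 3 counts in some library without reaching that level, and 77 had at most 3 counts in every library, of which 32 had none at all. A count of 0 in one of these libraries allows up to 3 counts, or 0.0506 to 0.0856 CPM, for counting error only. Interleukin receptor chains were the best represented class, with 18 of 38 expressed, against 7 of 40 interleukins, 5 of 42 chemokines and 2 of 17 chemokine receptors. Among the genes at or under 3 counts in every library were IL6, IL1A and IL18, central inflammatory cytokines, CXCR4 and its ligand CXCL12, which guide cell homing, CXCL10 and CXCL11, which attract T cells on interferon signalling, and CXCL3 and CXCL6, which attract neutrophils. IL1B reached at most 5 counts, CXCL1 at most 4 and CXCL2 at most 7. The members expressed with the lowest means were IL17B (9.51 normalized counts over the 6 libraries) and IL1R2 (9.48), a decoy receptor for IL-1, and the nearest genes that fell short were IL12A (7.0) and CCL2 (6.59).

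Levels were spread over a wide range and resembled each other between groups. In the deposited TPM values (transcript abundances that account for transcript length), IL1RAP was highest, with a mean of 61.4 TPM with GFP and 53.6 TPM in T-MGM-labelled libraries, followed by IL6ST at 21.6 and 22, IL16 at 16.7 and 16.6 and IL13RA1 at 12.6 and 12.8 TPM. The order of these 4 was the same in both groups, and neighbours in it did not overlap in any library. IL27RA (9.88 and 8.40 TPM) and IL17RA (7.56 and 7.16 TPM) came next, both above IL6R (6.31 and 5.24 TPM) in their group means, with the libraries of IL17RA and IL6R overlapping in GFP. The most abundant ligand in GFP after IL16 was CCL20 at 6.32 TPM, which in T-MGM-labelled libraries had 1.72 TPM, below CX3CL1 (6.27), CXCL16 (6.05), CCL28 (5.49) and CXCL8 (4.17). IL1RAP alone gave 31.7% to 32.4% of all member counts with GFP and 26.8% to 27.6% in T-MGM-labelled libraries. All members together took 0.0808% to 0.0825% of a GFP library and 0.0852% to 0.0864% of a library labelled T-MGM.

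The libraries labelled T-MGM were then compared with the GFP libraries by DESeq2 over the whole table. Genes were called, as in the methods of the study, when they changed by over 2-fold with an adjusted p (Benjamini-Hochberg, over all genes tested) of 0.05 or less. Of 45 members that received an adjusted p, 6 were called: IL2RB, IL7R, IL11 and IL17RE rose, and CCL20 and IL24 fell (4 higher and 2 lower; 3 and 3 with total counts as scaling, where CCL2 was called lower and IL17RE was not called). That is 13.3% of the members tested, where 4.63% of all 19135 genes tested were called (3.26% higher and 1.36% lower). A further 14 members passed the adjusted p threshold with a change of 2-fold or less, 12 higher and 2 lower, which gave 20 members in all (44.4% of those tested, where all genes had 38.4%, with 19.2% in each direction), of which 16 were higher and 4 lower, against 5 and 4 on TPM values with a pseudocount of 1. Groups did not overlap in 23 of the 45 members, against 46.8% of all genes. Among the protein-coding genes tested, 4.97% were called (3.84% higher and 1.13% lower), 49.4% passed the adjusted p threshold (24.7% in each direction) and 56.8% had groups that did not overlap; among those expressed, 5% were called and 53.5% passed. The median log2 fold change of the 45 members was 0.15, and that of all genes tested was -0.0027. The share of members at the adjusted p threshold was thus near the background, and the share called rested on 6 genes, of which IL17RE was close to the threshold.

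**Figure D1:**
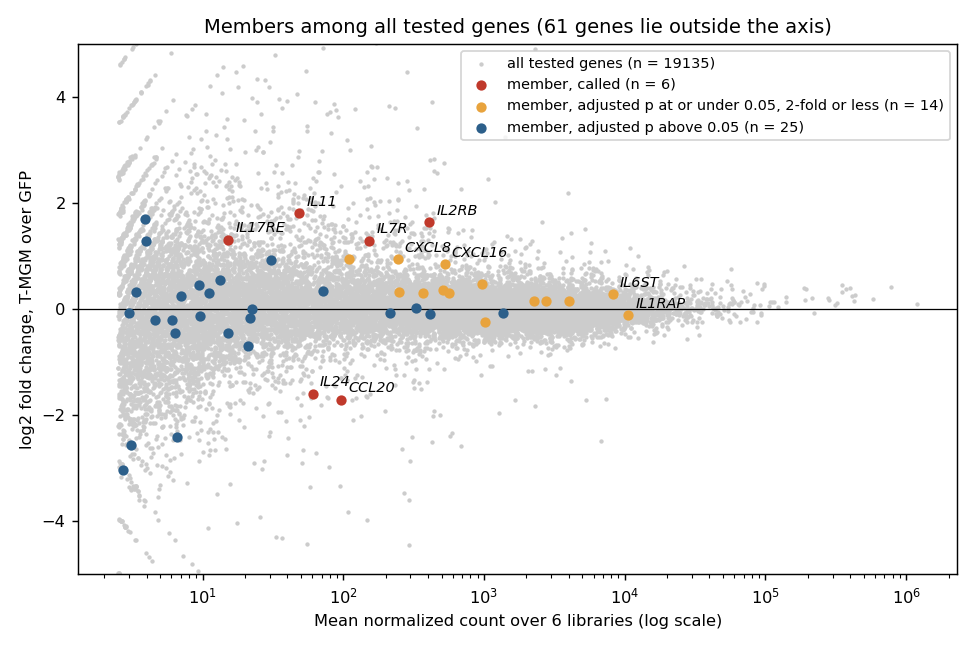
Mean normalized count over the 6 libraries (horizontal, log scale) against the log2 fold change of T-MGM over GFP (vertical) for the 19135 genes tested (grey) and the 45 members among them; 61 genes lie outside the vertical axis. The 6 called members (red) have means from 15.3 (IL17RE) to 407 (IL2RB) normalized counts, while the most abundant members, IL1RAP and IL6ST, lie near 0.

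Of the common gamma chain family, the receptor chains IL2RB and IL7R were called higher. IL2RB (ENSG00000100385.14; chromosome 22, 37118666 to 37175118, GRCh38), the chain of the IL-2 and IL-15 receptors that carries much of their signalling, had 199, 217 and 178 normalized counts in GFP libraries and 620.4, 618 and 607 in T-MGM-labelled libraries. Every library labelled T-MGM lay above every GFP library, and the spread within the labelled group was small. The log2 fold change was 1.63 (SE 0.10; 95% limits 1.43 to 1.84, adjusted p 5.55e-53 by DESeq2), a 3.10-fold rise from 198 ± 19.2 to 615 ± 6.87 (SD, n = 3 each). IL7R (chromosome 5, 35852695 to 35879603), the specific chain of the IL-7 receptor and a part of the receptor for TSLP, had 85.1, 92.0 and 88.0 normalized counts with GFP and 225, 215 and 210 in T-MGM-labelled libraries. The groups were again apart, with a log2 fold change of 1.29 (95% limits 0.97 to 1.61, adjusted p 4.96e-14 by DESeq2). In the TPM values, IL2RB rose by 1.04 and IL7R by 0.48 on the log2(TPM + 1) scale, under 2-fold for IL7R, which understates changes of low genes.

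The chain with which IL2RB and IL7R pair for IL-2, IL-15 and IL-7 was not detected. IL2RG, which encodes the common gamma chain, had 0 counts in all 6 libraries, as did IL2 and IL4. IL2RA, the high-affinity IL-2 receptor chain, had at most 3 counts in any library, and IL7 at most 1. IL15RA, which presents IL-15, was near the expression threshold, with 12, 5.41 and 12.6 normalized counts with GFP and 12.8, 14.6 and 9.59 in T-MGM-labelled libraries, and the groups overlapped. IL15 itself had 3, 5 and 6 counts with GFP and 3, 0 and 0 in T-MGM-labelled libraries. CRLF2, the partner of IL7R for TSLP, had at most 16 counts and reached 10 in 1 library only, and TSLP at most 2.

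IL4R and IL13RA1, which together form the receptor for IL-13 on non-haematopoietic cells, were both expressed. IL13RA1 had 2138, 2150 and 2133 normalized counts with GFP and 2350, 2459 and 2323 in T-MGM-labelled libraries, a log2 fold change of 0.15 (SE 0.04, adjusted p 6.74e-04 by DESeq2). On TPM values IL13RA1 did not pass (limma adjusted p of up to 0.847). IL4R had 230.2, 237 and 196 with GFP and 260, 285 and 281 in T-MGM-labelled libraries, a log2 fold change of 0.32 (SE 0.13, adjusted p 0.0354 by DESeq2). The sign of IL4R turned in TPM values, to -0.34 with a pseudocount of 1 (limma adjusted p of 0.0321); which of the steps that differ between the fits turned it was not tested. IL4R also missed the adjusted p threshold without GFP replicate 1 (adjusted p 0.0586 by DESeq2), GFP replicate 3 (0.201), T-MGM replicate 2 (0.122) and T-MGM replicate 3 (0.120). It kept its direction and the threshold in 4 of 16 alternatives. IL13 had at most 1 count in any library. IL13RA2, a decoy receptor for IL-13, had 3, 10 and 7 counts with GFP and 1, 1 and 19 in T-MGM-labelled libraries.

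In the gp130 family, the ligand IL11 rose and its receptor chains were present. IL11 (chromosome 19, 55364382 to 55370463), a gp130 cytokine linked to fibrosis and to tumour growth, had 16.8, 29.2 and 18.3 normalized counts with GFP and 87.6, 74.1 and 66.4 in T-MGM-labelled libraries. The lowest library labelled T-MGM was above the highest GFP library, and the log2 fold change was 1.82 (SE 0.32; 95% limits 1.18 to 2.45, adjusted p 1.19e-07 by DESeq2), a 3.52-fold rise. On TPM values it was 0.44 with a pseudocount of 1 and 1.17 with 0.1, and passed neither time (limma adjusted p of 0.0613 and 0.0632). IL11RA, its specific receptor chain, had 18.0, 29.2 and 16.0 normalized counts with GFP and 27.4, 40.0 and 53.1 in T-MGM-labelled libraries. Those groups overlapped, with a log2 fold change of 0.93 (SE 0.40, adjusted p 0.0526 by DESeq2), which passed without GFP replicate 2 (1.25, adjusted p of 0.0293) or T-MGM replicate 1 (1.14, adjusted p of 0.0331), and in edgeR with all libraries (0.93, adjusted p of 0.0399). IL11RA shares exon sequence with another gene on the same strand and with CCL27 on the opposite strand, so its counts are uncertain.

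IL6ST, which encodes the shared chain gp130, had 7450, 7338 and 7446 normalized counts with GFP and 9226, 8858 and 9024 in T-MGM-labelled libraries. All 3 were above GFP, by 0.29 on the log2 scale (SE 0.02, adjusted p 5.77e-36 by DESeq2). On TPM values the difference was 0.03 (limma adjusted p of 0.834), where the median gene lay at -0.13. IL6R, the specific chain of the IL-6 receptor, fell by 0.24 on the log2 scale (SE 0.07, adjusted p 0.00117 by DESeq2), from 1058, 1048 and 1167 to 997, 895 and 884 normalized counts. On TPM values IL6R did not pass (limma adjusted p of up to 0.497). IL6 had at most 3 counts in any library. IL27RA, at 1406 ± 30.7 and 1327 ± 64.2 normalized counts (SD, n = 3 each), had a log2 fold change of -0.08 and groups that overlapped (adjusted p 0.240 by DESeq2), and IL27 was at 0 throughout. IL27RA passed as lower in 5 of 16 alternatives, such as total-count scaling (-0.14, adjusted p of 0.0289 by DESeq2).

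All 4 expressed chains of the IL-17 receptor family rose at the adjusted p threshold, 1 of them by over 2-fold. Among protein-coding genes tested, 24.7% passed higher. Not every alternative kept all 4 chains at the threshold. IL17RD, also known as SEF and an inhibitor of fibroblast growth factor signalling, had 92.3, 78.0 and 53.7 normalized counts with GFP and 142, 175 and 117 in T-MGM-labelled libraries. It rose by 0.95 on the log2 scale (SE 0.22, adjusted p 7.89e-05 by DESeq2), just under 2-fold, and was over 2-fold without GFP replicate 1 (1.13) or T-MGM replicate 3 (1.09). The lowest value of IL17RD over the alternatives was 0.15, on TPM values, where it did not pass (limma adjusted p of 0.515). IL17RE (chromosome 3, 9902612 to 9916402), the specific chain for IL-17C, had 8.39, 5.41 and 12.6 normalized counts with GFP and 20.1, 21.5 and 23.6 in T-MGM-labelled libraries. Its groups did not overlap, but its call was fragile: the log2 fold change was 1.31 (SE 0.55, adjusted p 0.0448 by DESeq2), and the adjusted p was 0.106 without GFP replicate 1, 0.184 without GFP replicate 2, 0.102 without T-MGM replicate 1, 0.109 without T-MGM replicate 2 and 0.150 without T-MGM replicate 3.

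IL17RA, the chain shared across the IL-17 family, rose by 0.15 (SE 0.04, adjusted p 2.56e-04 by DESeq2), from 2683, 2623 and 2575 to 2906, 2976 and 2841 normalized counts. IL17RC, its partner for IL-17A and IL-17F, had 336, 340 and 315 with GFP and 384, 448 and 396 in T-MGM-labelled libraries, a log2 fold change of 0.31 (SE 0.10, adjusted p 0.0104 by DESeq2; 0.0622 without GFP replicate 3 and 0.107 without T-MGM replicate 2). After a correction for GC content and length, neither passed (0.07 with an adjusted p of 0.102 for IL17RA, 0.16 with 0.254 for IL17RC), and IL17RA turned to -0.07 in TPM values. IL17A, IL17C and IL17F had at most 2 counts in any library, and the ligands present were IL17D (63.2 ± 14.0 and 80.3 ± 10.3 normalized counts, SD, n = 3 each) and IL17B (9.91 ± 3.82 and 9.11 ± 5.81), whose groups overlapped. IL17RB, the receptor chain for IL-17B, had at most 6 counts.

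Of the IL-1 family, the receptor chains IL1RAP and IL1R1 were expressed, other receptor chains fell short of the threshold, and the ligands were near 0. IL1RAP, the accessory chain shared by the receptors for IL-1, IL-33 and IL-36, had 11177, 10741 and 11101 normalized counts with GFP and 10032, 10280 and 10282 in T-MGM-labelled libraries. It fell by 0.11 on the log2 scale (SE 0.02, adjusted p 7.72e-07 by DESeq2), and after correction for GC content and length the difference was -0.02 (adjusted p of 0.629). IL1R1, the signalling receptor for IL-1, had overlapping groups at 221 ± 19.6 and 211 ± 11.7 normalized counts (SD, n = 3 each). IL18BP, a soluble inhibitor of IL-18, also overlapped, at 425 ± 33.7 and 399 ± 18.8. IL33 reached at most 4 counts, IL18R1 at most 9 and IL1RL1, the receptor for IL-33, at most 8.

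IL24 was the only interleukin called lower. IL24 (chromosome 1, 206897443 to 206904139), an IL-10 family cytokine first isolated from melanoma cells driven to differentiate, had 110, 68.2 and 93.7 normalized counts with GFP and 33.8, 34.1 and 22.9 in T-MGM-labelled libraries. Every library labelled T-MGM lay below every GFP library, and IL24 fell by 1.59 on the log2 scale (SE 0.29; 95% limits -2.16 to -1.03, adjusted p 1.66e-07 by DESeq2). Its TPM values were uneven within GFP, at 1.73, 0.88 and 7.37, against 0.41, 0.40 and 0.40 in T-MGM-labelled libraries, and did not pass with a pseudocount of 1 (limma adjusted p of 0.0701). With a pseudocount of 0.1, IL24 was called lower on TPM values. FCMR overlaps IL24 exons on the opposite strand and had 31.2 ± 2.68 and 41.0 ± 1.79 normalized counts, a log2 fold change of 0.40 (SE 0.33, adjusted p 0.386 by DESeq2), and its part in the result was not tested. Of the chains that receive IL-24, IL20RB had 38.4, 8.66 and 21.7 normalized counts with GFP and 16.4, 14.6 and 29.5 in T-MGM-labelled libraries, with groups that overlapped, whereas IL20RA had at most 4 counts and IL22RA1 at most 1. IL10RB, the second chain of the receptors for IL-10, IL-22 and lambda interferons, rose by 0.31 (SE 0.08, adjusted p 8.69e-04 by DESeq2), from 543, 487 and 484 to 655, 636 and 590 normalized counts. A read-through transcript with IFNAR2 covers part of IL10RB, which did not pass on TPM values (limma adjusted p of up to 0.338). IL10 had 10.8 ± 8.58 normalized counts with GFP and 15.9 ± 2.80 in T-MGM-labelled libraries (SD, n = 3 each).

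IL16, a chemoattractant for CD4-bearing cells that is cut from a larger precursor, had 3870, 3741 and 3757 normalized counts with GFP and 4063, 4238 and 4285 in T-MGM-labelled libraries. The log2 fold change of 0.15 (SE 0.03, adjusted p 1.18e-05 by DESeq2) was not seen in TPM values (-0.0076), and other genes overlap its exons on the opposite strand. IL23A, a subunit of IL-23, had 46.8, 18.4 and 12.6 normalized counts with GFP and 13.7, 18.5 and 15.5 in T-MGM-labelled libraries, where a single GFP library stood above the rest.

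**Figure D2:**
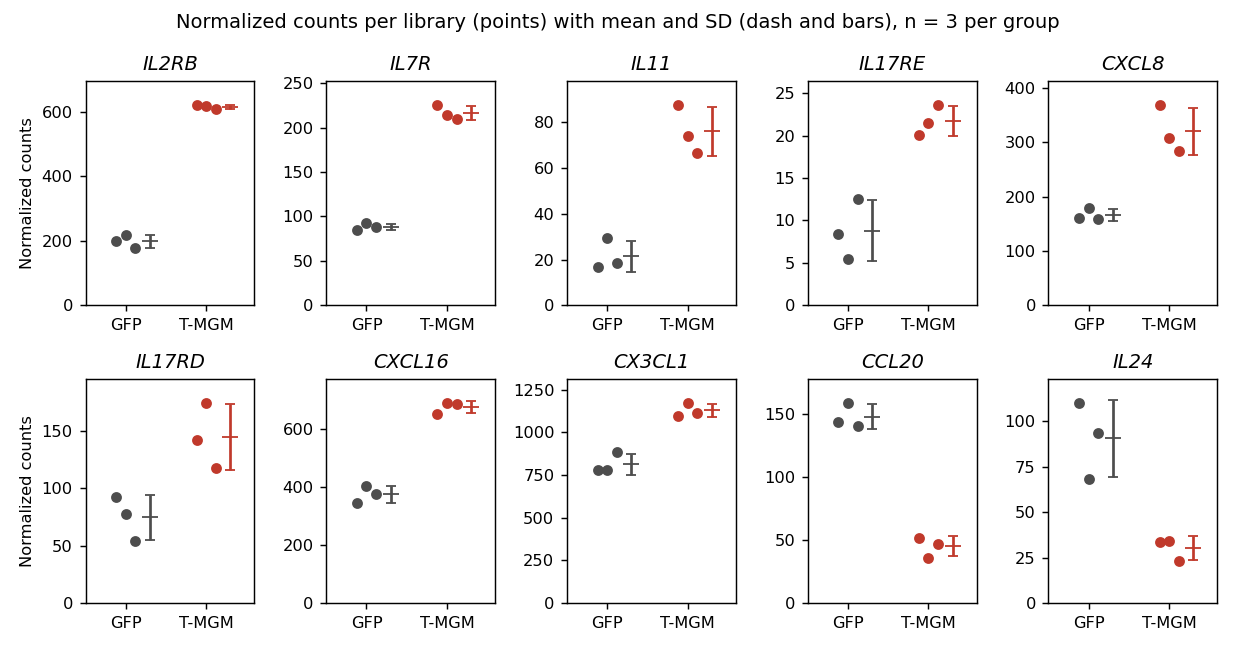
Normalized counts in each of the 3 GFP libraries (grey points) and 3 T-MGM-labelled libraries (red points), with the mean (dash) and SD (bar) beside them, for 10 members; every vertical axis starts at 0 and has its own range. The 10 members shown are all at the adjusted p threshold, and their groups do not overlap, as in 46.8% of all genes tested. Ranges include IL2RB (178 to 217 against 607 to 620.4) and CCL20 (140.5 to 159 against 36.1 to 52.0).

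Chemokine ligands changed in both directions. Of the 5 expressed, 4 were higher at the adjusted p threshold without reaching 2-fold, and CCL20 fell. The share passing in either direction among expressed protein-coding genes was 53.5%. CCL20 (ENSG00000115009.13; chromosome 2, 227805739 to 227817564), which attracts dendritic cells and T cells that bear CCR6, had 144, 159 and 140.5 normalized counts with GFP and 52.0, 36.1 and 47.2 in T-MGM-labelled libraries. The groups were far apart, and CCL20 fell by 1.71 on the log2 scale (SE 0.21; 95% limits -2.13 to -1.29, adjusted p 2.08e-14 by DESeq2), to 45.1 ± 8.16 from 148 ± 9.94 (SD, n = 3 each). The same direction and a change over 2-fold were seen in TPM values (-1.43, limma adjusted p of 0.0011 without a filter).

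CXCL8, which encodes interleukin-8, a neutrophil attractant that many melanomas secrete, had 161, 179 and 159 normalized counts with GFP and 369, 308 and 284 in T-MGM-labelled libraries. All 3 were above GFP, a log2 fold change of 0.94 (SE 0.14; 95% limits 0.67 to 1.22, adjusted p 7.83e-11 by DESeq2), and the change was over 2-fold without GFP replicate 2 (1.00) or T-MGM replicate 3 (1.03), and after correction for GC content and length (1.14). The lowest value of CXCL8 over the alternatives was 0.59, still at the adjusted p threshold. CXCL16, a membrane-anchored chemokine that also acts as a scavenger receptor, had 344, 402 and 375 with GFP and 651, 689 and 686 in T-MGM-labelled libraries, a log2 fold change of 0.85 (SE 0.09, adjusted p 6.06e-21 by DESeq2). MED11 and ZMYND15 overlap CXCL16 exons on the opposite strand, and their log2 fold changes were 0.07 and 0.36 (SE 0.10 and 0.49).

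CX3CL1, or fractalkine, the other membrane-anchored chemokine, had 778, 776 and 883 normalized counts with GFP and 1097, 1173 and 1114 in T-MGM-labelled libraries. It rose by 0.47 on the log2 scale (SE 0.07, adjusted p 5.08e-12 by DESeq2). CCL28, which acts at mucosal surfaces through CCR10 and CCR3, rose by 0.36 (SE 0.09, adjusted p 3.25e-04 by DESeq2), from 460, 485 and 407 to 613, 572 and 551 normalized counts. On TPM values CCL28 did not pass (limma adjusted p of up to 0.382). CCL2, a monocyte attractant just under the expression threshold, had 16, 7 and 6 counts with GFP and 0, 0 and 8 in T-MGM-labelled libraries, with a DESeq2 adjusted p of 0.0568, and it was singled out after its values were seen.

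**Figure D3:**
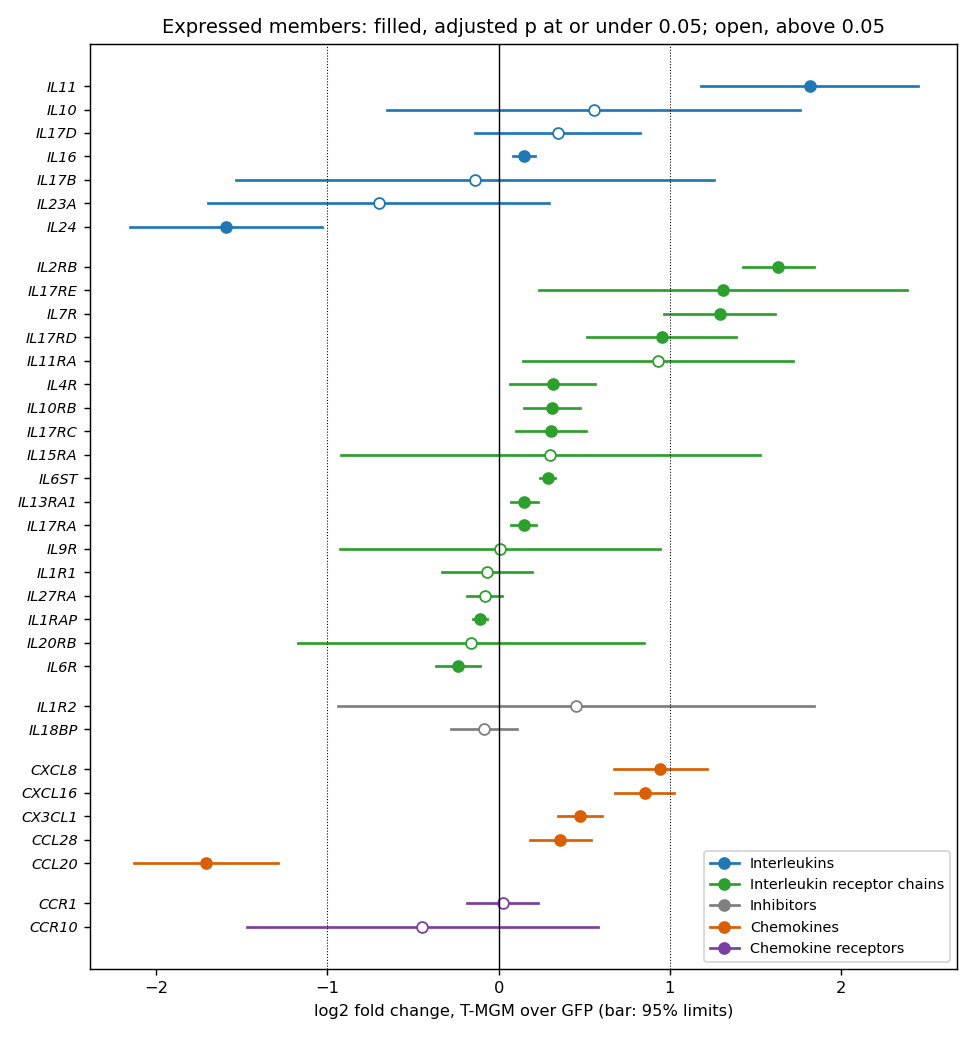
Log2 fold change of T-MGM over GFP (point) with its 95% limits (bar) for the 34 expressed members, by class; filled points have an adjusted p at or under 0.05, and dotted lines mark a 2-fold change. IL11, IL2RB, IL17RE and IL7R lie beyond 2-fold to the right, and CCL20 and IL24 to the left.

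The receptors for the expressed chemokines were mostly at the detection floor in the same cells. CXCR1 had at most 2 counts and CXCR2 at most 7 in any library, for CXCL8; CXCR6 had at most 3, for CXCL16; CX3CR1 at most 3, for CX3CL1; and CCR6 at most 1, for CCL20. CCL28 was the exception, since CCR10 had 15.6, 22.7 and 13.7 normalized counts with GFP and 12.8, 14.6 and 11.1 in T-MGM-labelled libraries, with groups that overlapped; CCR10 shares exon sequence with CNTNAP1 on the opposite strand, so its counts are uncertain. CCR1, a receptor for CCL3 and CCL5, was the most abundant chemokine receptor, with 321, 319 and 344 normalized counts with GFP and 345, 337 and 319 in T-MGM-labelled libraries. The 95% limits of its log2 fold change were -0.19 to 0.23, and its ligands CCL3 and CCL5 had at most 2 and 8 counts. The reverse arrangement, a receptor present with its ligand near 0, held for IL6R, IL7R, IL4R, IL13RA1, IL27RA and IL1R1.

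**Figure D4:**
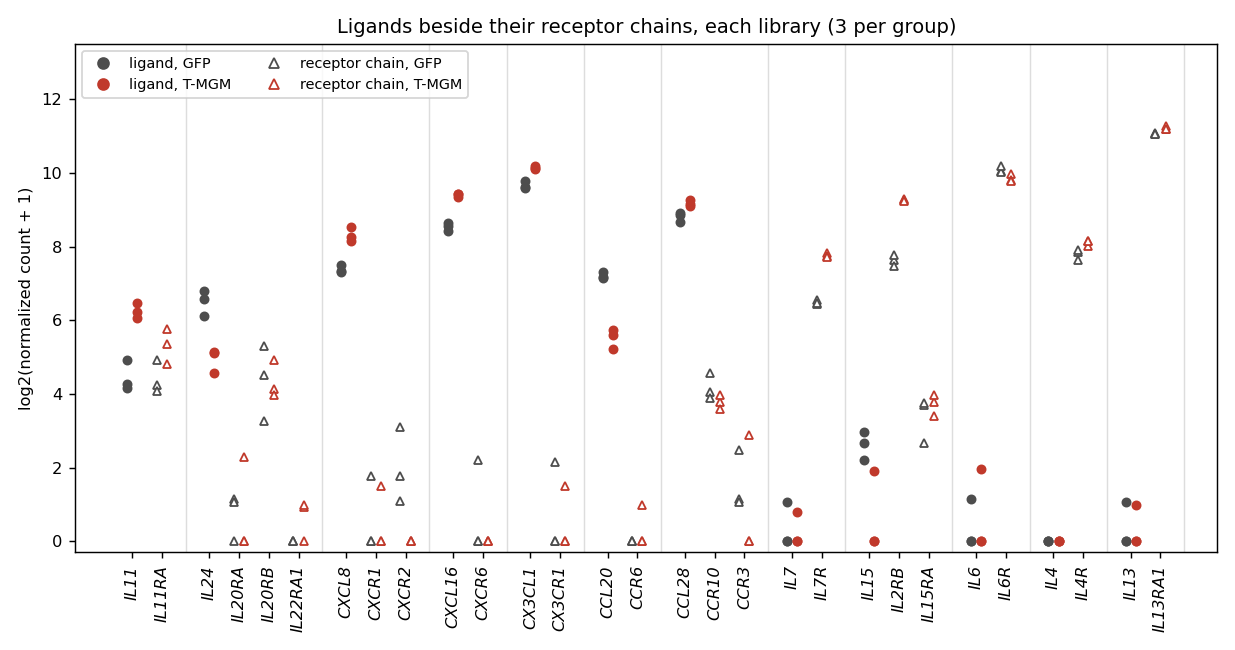
Log2 of the normalized count plus 1 in each library for ligands (filled circles) and their receptor chains (open triangles), GFP in grey and T-MGM in red. CXCL8, CXCL16, CX3CL1 and CCL20 lie well above their receptors in every library, while IL7R, IL2RB, IL6R, IL4R and IL13RA1 lie above their ligands; IL11 and IL11RA lie close together in GFP.

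Genes of the same pathways under other names were read from a list of 79. Of the 57 that received an adjusted p, 21 were higher and 14 lower at the threshold (61.4% of those tested, where 38.4% of all genes and 53.5% of expressed protein-coding genes passed), and 5 were called (8.77%, where all genes had 4.63%), all higher, among them GNAI1, CSF1, CD74 and IRAK2. Their median log2 fold change was 0.07. GNAI1, an inhibitory G protein alpha subunit used by chemokine and many other receptors, had 33.9 ± 13.7 normalized counts with GFP and 283 ± 55.0 in T-MGM-labelled libraries (SD, n = 3 each), and its log2 fold change was 3.08 (SE 0.23, adjusted p 2.95e-39 by DESeq2). CSF1, the growth factor of macrophages, rose by 1.70 (SE 0.21, adjusted p 7.17e-15 by DESeq2), from 51.0 ± 9.63 to 166 ± 13.4 normalized counts. CD74, the invariant chain and a receptor for MIF, rose by 1.11 (SE 0.28, adjusted p 3.21e-04 by DESeq2; it was not called without GFP replicate 2 or T-MGM replicate 2). IRAK2, a kinase of IL-1 receptor signalling, had 0, 0 and 1 counts with GFP and 17, 3 and 8 in T-MGM-labelled libraries, too few for a fold.

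Among the pathway genes that changed by 2-fold or less, GNAI2, LIF and MIF had the largest Wald statistics. GNAI2 rose by 0.47 (SE 0.02, adjusted p 6.67e-122 by DESeq2) and MIF, an abundant cytokine, by 0.34 (SE 0.03, adjusted p 2.39e-30 by DESeq2), while LIF, a gp130 cytokine, fell by 0.25 (SE 0.02, adjusted p 3.84e-36 by DESeq2), from 12024 ± 199 to 10096 ± 119 normalized counts (SD, n = 3 each). The counts of the sub-lists below are of the genes tested. They stand beside the 19.2% of all genes, and the 24.7% of protein-coding genes, that passed in each direction. Of 12743 expressed protein-coding genes, 3413 passed higher and 3403 lower. Of 10 JAK kinases and STAT factors tested, among 11 listed, 5 were higher and 3 lower at the threshold. JAK3, the kinase that binds the common gamma chain, was chosen after its values were seen and rose by 0.97 (SE 0.14, adjusted p 1.52e-11 by DESeq2), from 150 ± 18.0 to 294 ± 6.30 normalized counts. Of 12 feedback inhibitors of this pathway, all tested, 1 was higher (SOCS3, 0.60, SE 0.10, adjusted p 2.59e-08 by DESeq2) and 6 were lower. Of 12 adaptors and kinases of IL-1 and IL-17 receptors tested, among 14 listed, 4 were higher and 1 lower. Of 9 transducers of chemokine receptors, all tested, 5 were higher and 2 lower. Of 11 cytokines and receptor chains tested, among 18 listed, 4 were higher and 2 lower, and of 3 chemokine system genes tested, among 15 listed, MIF and CD74 were higher.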

How the data were processed

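RNA sequencing data of 6 libraries of WM164 cells were analysed, with groups and replicate numbers taken from the sample titles. Per the labels and the methods of the study, the authors trimmed reads with cutadapt 1.8.1, aligned them to GRCh38 with STAR 2.7.7a and counted uniquely aligned reads with featureCounts; these deposited counts per gene are whole and carry no normalization. The deposited TPM values were estimated by the authors with RSEM 1.3.0 and sum alike in every library; they served for levels between genes and for alternatives. The labels name a kit without strand information and the methods a stranded one, so counts of overlapping genes are uncertain, and the annotation release is not given in the sources used here. Exons of IL17RC and IL20RB overlap another gene on the same strand, and those of IL18BP overlap NUMA1 on the opposite strand.

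Counts were compared with DESeq2 1.42.0 in R 4.3.3, with group as the only term, a 2-sided Wald test and an adjusted p over all genes tested, left undefined where DESeq2 left it so. Floors of 3 counts cover counting error only. The members and lists were chosen with earlier results of these data known. Named are members at the adjusted p threshold, expressed members with a mean of at least 100 normalized counts, and, of the pathway list, called genes and the 3 of the rest with the largest Wald statistic. Positions are from GENCODE release 44 (GRCh38), in which 142 of 144 identifiers were found. Alternatives were edgeR 4.0.16 (quasi-likelihood), TMM or total-count scaling, filters on low counts, a replicate block, each replicate left out, limma 3.58.1 on log2(TPM + 1 or 0.1) with a minimum of 0.5 TPM in 3 libraries or none, and, added after seeing the data, offsets for GC content and transcript length. The steps were tested on simulated data. One called gene of the pathway list is not reported here.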

Additional observations from a re-analysis of the deposited data

How the results depend on the processing

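The count of called members, 6 as reported, moved to 2, 3 and 2 on TPM values (pseudocount 1, pseudocount 0.1, and 1 without a filter); members at the adjusted p threshold moved from 20 to 9, 10 and 8, and pathway genes called from 5 to 2, 3 and 2. Genes with a mean of at least 50 normalized counts had a median log2 fold change in these fits of -0.13, -0.15 and -0.13, against -0.01 as reported, and the cause was not tested. IL2RB, IL7R, CCL20, CXCL16, CXCL8 and CX3CL1 passed the adjusted p threshold in the same direction under all 16 alternatives. In the same TPM fits IL4R reversed (-0.34, -0.46 and -0.34), as did IL16 (-0.0076, -0.0081 and -0.0076), IL17RA (-0.067, -0.075 and -0.067) and CCR1 (-0.087, -0.12 and -0.087), which was also at -0.031 with total-count scaling and between -0.0017 and 0.059 with single replicates removed. IL17RD, IL17RE and CCL2 gave no value where the TPM minimum applied. Over the named members, 334 values kept direction and side of the threshold, 50 lost the threshold, 11 gained it and 14 reversed. Across the fits without one replicate, 5 to 8 members were called, 17 to 22 passed the adjusted p threshold, 4 to 6 pathway genes were called, and 32 to 34 members were expressed. Expression counts of 28, 41 and 34 came from 10 counts in every library, 5 counts in 3 libraries and 0.25 CPM in 3 libraries. Same-numbered libraries gave no sign of deviating together (r of -0.0067, -0.058 and 0.029 across genes, against -0.089 to 0.0916 for different numbers). With 3 libraries per group, these values cannot exclude a pairing by number. With the replicate block 6 members were called, CCL2 in place of IL17RE, and 18 passed the adjusted p threshold. Depth limits statements on the 77 entries at or under 3 counts.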
